A study of Saccharomyces cerevisiae with 26 samples.

Results

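The 26S proteasome of *Saccharomyces cerevisiae* was followed through its 33 subunit genes and *RPN4*, the gene of the transcription factor that activates them. The 34 genes were taken by systematic identifier, out of 6600 genes in every library. The rule uses no measured value, but the set was proposed with earlier results of these data known. They comprised 7 genes of the alpha ring and 7 of the beta ring of the core particle, 10 genes of the base and 9 of the lid of the regulatory particle, and *RPN4*. All 34 passed the filter on low values, a mean of at least 10 FPKM, in every fit.

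The cultures were of CEN.PK113-7D, a haploid prototrophic laboratory strain, grown on limiting glucose in bioreactors to ask how yeast responds to low pH, high CO2 and growth close to zero. The 12 steady-state libraries came from 3 cultures in each of 4 groups, which combined pH 3 or pH 5 with an inlet gas of 50% or 0.04% CO2, all at a dilution rate of 0.025 per hour. For the groups with 0.04% CO2, the growth protocol in the labels names compressed air and yet also a CO2 content of 50%, against the condition label, and the condition label was followed in every CO2 comparison. At pH 3 with 50% CO2, the labels call 1 library (replicate 3) a chemostat, and the other 2 libraries (replicates 1 and 2) were the steady states that opened the industrial retentostats. The 16 retentostat libraries came from 2 industrial cultures (pH 3, 50% CO2) and 2 laboratory cultures (pH 5, 0.04% CO2), each sampled at 4 points, of which the first preceded cell retention and the fourth was closest to zero growth. The labels give no growth rate for each sample, so sampling points were compared. The sample titles name the later points differently in the industrial and the laboratory cultures, so points of the same number are not matched between conditions.

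The proteasome degrades proteins that carry ubiquitin chains. The lid and base recognise, deubiquitinate and unfold a substrate, and the core cuts it inside a chamber closed by the alpha rings. In yeast, Rpn4 binds a promoter element called PACE (proteasome-associated control element) ahead of most subunit genes, and Rpn4 is itself destroyed quickly by the proteasome, which makes subunit transcription respond to proteasome capacity. In these bulk samples, a change in the share of living cells and a change in RNA per cell cannot be told apart.

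The exact PACE letters GGTGGCAAA, searched on both strands from 250 bases before to 50 bases after the start codon in release R64 of the genome, occurred in 27 of the 34 members, against 72 of 6001 protein-coding genes (1.2%). The shorter GGTGGCA, which is part of the longer element, occurred in the same 27 members and in 2.88% of all genes. The end of the element nearest to the gene lay between 76 and 175 bases before the start codon, with a median of 112, and 19 of the 27 elements were read on the strand of the gene. Shown next, with PACE in capitals and 10 bases on either side, are the elements of the subunits with this motif whose transcripts were called changed in any comparison, and that of *PRE7*, the subunit with the highest correlation with the other subunits over the steady-state libraries. Each is written in the direction in which PACE reads GGTGGCAAA, with its place in R64.

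*RPN5* (YDL147W, lid, chromosome IV, 190776 to 190804, plus strand): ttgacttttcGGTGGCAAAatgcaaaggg
*RPN11* (YFR004W, lid, chromosome VI, 153259 to 153287, plus strand): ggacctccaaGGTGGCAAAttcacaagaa
*RPT5* (YOR117W, base, chromosome XV, 544855 to 544883, plus strand): gccaatatgtGGTGGCAAAaatgaattaa
*PRE8* (YML092C, alpha ring, chromosome XIII, 86841 to 86869, minus strand): agcttattaaGGTGGCAAAattgtccccg
*PRE9* (YGR135W, alpha ring, chromosome VII, 761223 to 761251, plus strand): ttaccctgcaGGTGGCAAAaaatttatag
*PRE3* (YJL001W, beta ring, chromosome X, 435035 to 435063, plus strand): aacggaatccGGTGGCAAAaaagggaaaa
*PRE4* (YFR050C, beta ring, chromosome VI, 249959 to 249987, plus strand): acgtatttaaGGTGGCAAAttctaaacca
*PUP3* (YER094C, beta ring, chromosome V, 349511 to 349539, minus strand): tggcactgccGGTGGCAAAaaagtgcaaa
*PRE7* (YBL041W, beta ring, chromosome II, 141150 to 141178, plus strand): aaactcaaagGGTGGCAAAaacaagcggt

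No exact copy was found in the windows of *PRE5* (YMR314W, alpha ring), *PUP1* (YOR157C, beta ring), *RPN10* (YHR200W) and *RPN13* (YLR421C), ubiquitin receptors of the base, *RPN8* (YOR261C) and *SEM1* (YDR363W-A), both of the lid, or *RPN4* (YDL020C). Of the 6 subunits without these letters, 5 were called changed in at least 1 of the 13 comparisons below, as were 8 of the 27 with them. Of all genes tested in every comparison, 78.1% were called at least once. This split was noticed after the values were seen and carries no test. A match is a description of the letters and says nothing of binding.

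The depth was 12528647 to 16709016 reads on genes in the steady-state libraries, 13109387 to 16709016 in the industrial retentostats and 21717268 to 86470819 in the laboratory retentostats. The lowest count of any member in any steady-state library was 1339 reads, for *RPN13*. The study's methods say that the laboratory retentostat libraries were sequenced by another company than the rest, whereas the labels name the same company, and levels were not compared between the conditions. In the pH 5 cultures, 2 libraries stood apart from their group over all genes, replicate 3 with 0.04% CO2 and replicate 1 with 50% CO2 (median distances of 0.31 and 0.335 on the log2 scale). The 2 libraries of laboratory point 2 also lay far from each other (0.321). Over the members alone, of the steady-state libraries, replicate 1 at pH 3 with 0.04% CO2 was the farthest from its group (median distance 0.334), and replicate 3 at pH 3 with 50% CO2 had the most members, 5, over 0.5 from theirs. These libraries bear on several results, which are given with and without them. The median shift of all genes in the values as deposited reached 0.60 on the log2 scale for 50% over 0.04% CO2 at pH 3 and -0.42 for pH 3 over pH 5 at 0.04% CO2. It was removed by a scaling between libraries (trimmed mean of M values, TMM), and all values below are FPKM after this scaling.

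At steady state, *SEM1*, which encodes a small acidic lid protein, had the highest mean level of the subunits (886 FPKM over the 12 libraries), and *RPN3*, a lid scaffold gene, had the lowest (100.3 FPKM). FPKM is per length of transcript, and 29 of the 33 subunits lay within 2-fold of the subunit median of 297 FPKM. This median exceeded the level of 85.4% of all genes tested. *RPN4* averaged 248 FPKM. Across the 12 libraries, the 33 subunits correlated with the mean of the others with a median r of 0.783, and 26 had r above 0.5, as did 19.465% of other genes. Over the industrial and the laboratory retentostats, 24 and 19 subunits had r above 0.5, against 29.194% and 26.167% of other genes. At steady state the median r over pairs of subunits was 0.544, against -0.002 over pairs of all genes. Over the industrial and the laboratory retentostats the median r over pairs of subunits was 0.434 and 0.329. At steady state *PRE7*, a beta ring gene, had the highest r of the subunits (0.977), and *PRE8* (-0.569), *RPT5* (-0.159), *PUP1* (-0.138), *PRE3* (-0.091) and *RPN10* (-0.021) lay below 0. The r of *RPN4* with the mean of the subunits was 0.791, which 1.645% of other genes exceeded. It was lower in the retentostats, at 0.653 in the industrial cultures (exceeded by 20.502% of other genes) and -0.152 in the laboratory cultures (exceeded by 56.276%). These values describe libraries that share groups, depth and scaling, and carry no test.

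High CO2 at pH 5 gave no change in a proteasome gene that passed the test. There, 0 of 34 members were called changed by 50% CO2 over 0.04% CO2 with limma at an adjusted p under 0.05, and 0 had an unadjusted p under 0.05. Of all 5078 genes tested, 1.93% were called (0.768% higher and 1.16% lower). The log2 changes of the members ranged from -0.15 for *SEM1* to 0.14 for *RPN13*, with a median standard error of 0.151. *RPN4* had 271, 215 and 226 FPKM with 50% CO2, against 238, 234 and 199 FPKM with 0.04% CO2, and the groups overlapped (log2 change 0.08 ± 0.17 SE).

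At low pH with 0.04% CO2, 1 subunit gene was called higher after scaling. *PUP1*, which encodes the beta subunit with trypsin-like activity, had 321, 389 and 438 FPKM at pH 3, against 240, 257 and 230 FPKM at pH 5. Every library at pH 3 was above every library at pH 5, and the log2 change was 0.65 ± 0.15 (SE, adjusted p = 0.0099). It was the only member called of the 34, where 12.8% of all genes were called higher and 8.76% lower (21.6% in all). In the values as deposited this call was lost, and 4 other members were called, all lower (*PRE1*, *RPN8*, *RPN9* and *SEM1*). It was also lost without replicate 3 at pH 3, and without replicate 1 at pH 3 the number of members called was 3. For these alternative fits the share of all genes called was not counted. The beta ring as a whole had a median log2 change of 0.27 and the lid one of -0.10, against -0.01 over all genes. The largest value of another beta ring gene was 0.40 for *PRE4* (adjusted p = 0.076), and the lid genes *SEM1* and *RPN8* stood at -0.42 (adjusted p = 0.23) and -0.40 (adjusted p = 0.20). *RPN4* had 189, 265 and 257 FPKM at pH 3 (log2 change 0.07 ± 0.17 SE, adjusted p = 0.78).

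**Figure D1:**
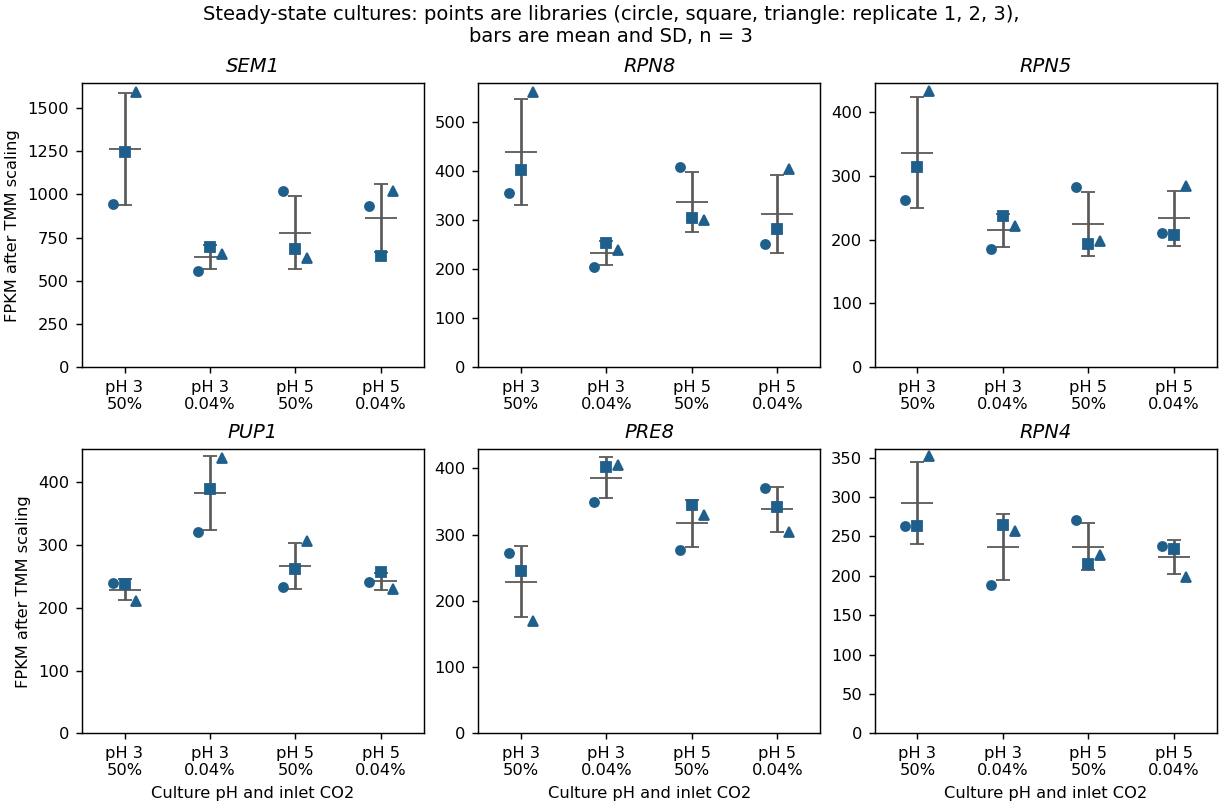
Levels of 6 members in the steady-state cultures, in FPKM after TMM scaling, by culture pH and inlet CO2. Points are libraries and bars give the mean and SD of 3 cultures. At pH 3, *SEM1*, *RPN8* and *RPN5* are higher and *PUP1* and *PRE8* are lower with 50% CO2 than with 0.04% CO2 in every library, while the libraries of *RPN4* overlap.

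High CO2 at pH 3 gave the most calls among the members. With 50% over 0.04% CO2, 11 of 34 members were called changed, 5 higher and 6 lower, where 49.4% of all genes were called (23.2% higher and 26.2% lower), so the share of members called was below that of all genes. The members called higher were 4 lid genes and *RPN13*, and those called lower were 4 core genes and 2 base genes. All 9 lid genes had a positive log2 change, with a median of 0.45, whereas 5 of the 7 beta ring genes had a negative one, with a median of -0.21. The medians were 0.14 in the alpha ring, 0.12 in the base and 0.01 over all genes.

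*SEM1* had 945, 1244 and 1593 FPKM with 50% CO2, against 559, 698 and 655 FPKM with 0.04% CO2. The groups did not overlap, and the means of 1260 ± 324 and 637 ± 71.1 FPKM (SD, n = 3 each) gave a log2 change of 0.96 ± 0.25 (SE, adjusted p = 0.0099). *RPN8*, the gene of the inactive partner of the lid deubiquitinase, had 354, 401 and 561 FPKM with 50% CO2, against 205, 253 and 239 FPKM with 0.04% CO2 (log2 change 0.89 ± 0.22 SE, adjusted p = 0.0075). Both calls held in each of the 21 alternatives that kept the limit of adjusted p, though neither passed the stricter limits given below. *RPN11*, the gene of the deubiquitinase itself, had 256, 286 and 313 FPKM, against 170, 204 and 211 FPKM (log2 change 0.55, adjusted p = 0.027). The scaffold gene *RPN5* had 263, 313 and 432 FPKM, against 186, 236 and 222 FPKM (log2 change 0.62, adjusted p = 0.032). In *SEM1*, *RPN8*, *RPN11* and *RPN5* the library labelled as a chemostat was the highest of its group, above the steady states of the industrial retentostats. *RPN13* reached 334, 404 and 500 FPKM, against 234, 319 and 312 FPKM (log2 change 0.51, adjusted p = 0.03). The calls of *RPN11*, *RPN5* and *RPN13* were kept in 15, 16 and 17 of the 21 alternatives, and each was lost when certain single pH 3 libraries were left out.

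Of the genes called lower, *PUP1* had 239, 237 and 210 FPKM with 50% CO2, against 321, 389 and 438 FPKM with 0.04% CO2 (log2 change -0.73 ± 0.15 SE, adjusted p = 0.0029). Its means were 229 ± 16.3 and 383 ± 58.5 FPKM, against means of 267 ± 36.6 and 242 ± 13.6 FPKM at pH 5 with 50% and 0.04% CO2 (SD, n = 3 each). *PRE8*, an alpha ring gene, had 272, 245 and 170 FPKM, against 350, 402 and 405 FPKM (log2 change -0.77 ± 0.18 SE, adjusted p = 0.0055). Both were called in 20 of these 21 alternatives, the exception being the values as deposited. The other genes called lower were *PRE3*, whose product has the caspase-like activity (-0.47, adjusted p = 0.036), the beta ring gene *PRE4* (-0.40, adjusted p = 0.046), the ATPase gene *RPT5* (-0.39, adjusted p = 0.045) and the ubiquitin receptor gene *RPN10* (-0.49, adjusted p = 0.023). Each of these 4 lost its call in 5 to 14 of the 21 alternatives. *RPN4* had 263, 263 and 353 FPKM with 50% CO2, against 189, 265 and 257 FPKM with 0.04% CO2 (log2 change 0.31 ± 0.17 SE, adjusted p = 0.15). It was called higher after quantile normalization (0.65, adjusted p = 0.021) and in the values as deposited (0.90, adjusted p = 0.0022).

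The split between higher and lower in this comparison depended on the scaling. In place of 5 higher and 6 lower, quantile normalization gave 22 higher and 2 lower (*PRE8* and *PUP1*), and the values as deposited gave 28 higher and 0 lower. The median shift of all genes was 0.60 in the deposited values, where the subunits had a median of 0.76. Without replicate 3 of either pH 3 group, 4 members were called, without replicate 2 of either, 5 were called, and without replicate 1 with 0.04% CO2, 8 were called. Over all fits without 1 library, the count ran from 4 to 14. Without the 2 pH 5 libraries that stood apart, 5 lid, 4 base and 1 beta ring genes were called higher. In that fit, 3 beta ring, 2 base and 1 alpha ring genes were called lower. The share of all genes called was not counted in these alternative fits, so their counts cannot be set against it.

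**Figure D2:**
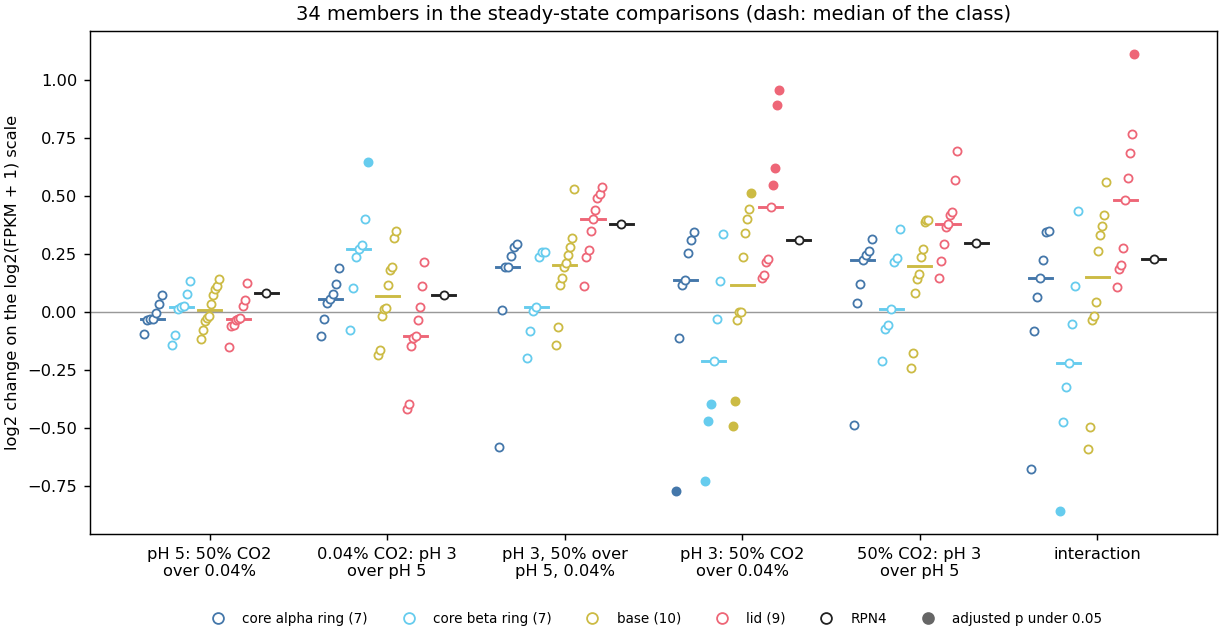
Log2 changes of the 34 members in 5 steady-state comparisons and in the pH by CO2 interaction, by class, on the log2(FPKM + 1) scale. Each circle is a gene, filled where the adjusted p was under 0.05, and each dash is the median of a class. All 9 lid genes lie above 0 with 50% over 0.04% CO2 at pH 3, and in the beta ring 3 genes are filled below 0.

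The combination of low pH and high CO2 was compared with pH 5 at 0.04% CO2, and low pH was compared at 50% CO2. In both, 0 members were called with limma (8 higher and 1 lower at an unadjusted p under 0.05), where 10.2% of all genes were called for the combination (3.62% higher, 6.54% lower) and 6.42% for low pH at 50% CO2 (2.68% higher, 3.74% lower). The lid genes were all positive in both comparisons, with medians of 0.40 and 0.38, against 0.01 and 0.00 over all genes, and the largest value was that of *SEM1* (0.54, adjusted p = 0.17, and 0.69, adjusted p = 0.10). *PRE8* had the lowest value in both (-0.58, adjusted p = 0.055, and -0.49, adjusted p = 0.10). *RPN4* had 263, 263 and 353 FPKM at pH 3 with 50% CO2, against 238, 234 and 199 FPKM at pH 5 with 0.04% CO2. These groups did not overlap, but the log2 change of 0.38 ± 0.17 (SE) did not pass the test (adjusted p = 0.17). The comparisons share the libraries at pH 3 with 50% CO2. Among these, the geometric mean of the lid genes was 269, 294 and 373 FPKM, with the highest value in the library labelled as a chemostat. At pH 5 it was 233, 220 and 265 FPKM with 0.04% CO2 and 270, 221 and 219 FPKM with 50% CO2.

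The 2 pH 5 libraries that stood apart also had high transcripts of part of the subunits. Their geometric mean over the 33 subunits was 318 FPKM in each, against 282 to 292 FPKM in the other 4 pH 5 libraries. The beta ring was not high, with 376 and 369 FPKM against 375 to 398 FPKM. Among the members, *RPN8* lay furthest from the group in the first of these libraries and *RPT2* in the second. *RPN8* had 404 FPKM in replicate 3 with 0.04% CO2 and 407 FPKM in replicate 1 with 50% CO2, against 252 to 304 FPKM in the other 4 pH 5 libraries, and *RPT2*, a gene of the base, had 328 and 318 FPKM against 200.3 to 234 FPKM. In a fit without both, a choice made after the values were seen, 10 members were called for the combination (9 higher, 1 lower) and 12 for low pH at 50% CO2 (11 higher, 1 lower). In that fit, 40.4% of all genes were called for the combination (18.6% higher, 21.9% lower) and 46.3% for low pH at 50% CO2 (22.4% higher, 23.8% lower), so the share of members called in either direction was below that of all genes in both. By direction, the share of members called higher was above that of all genes in both, and the share called lower was below it. The genes called in both included *SEM1* (0.67 and 0.90), *RPN5* (0.65 and 0.74), *RPN8* (0.68 and 0.51), *RPN11* (0.56 and 0.59) and *RPT2* (0.45 and 0.60) as higher and *PRE8* (-0.67 and -0.59) as lower. Leaving out only replicate 3 with 0.04% CO2 gave 4 called for the combination, and leaving out only replicate 1 with 50% CO2 gave 6 for low pH at 50% CO2. With only 1 library left out, the share of all genes called was not counted.

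The interaction, the effect of 50% CO2 at pH 3 minus that at pH 5, was called for 2 of 34 members, where 21.8% of all genes were called (7.52% higher and 14.3% lower). *PUP1* had -0.86 ± 0.21 (SE, adjusted p = 0.017) and kept this call in 18 of 20 alternatives, being lost in the values as deposited and without replicate 3 at pH 5 with 50% CO2. *SEM1* had 1.11 ± 0.35 (SE, adjusted p = 0.043), and its call was lost in 10 of 20 alternatives. The number of members called was 8 without replicate 1 at pH 5 with 50% CO2. *RPN4* showed 0.23 ± 0.24 (SE, adjusted p = 0.48). In the values as deposited, where the median of all genes shifted by 0.62, 26 members were called, all higher, *RPN4* among them (0.84, adjusted p = 0.028). Neither for this count nor for that of 8 was the share of all genes called counted.

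Along the industrial retentostats, 4 of 34 members were called from point 1 to point 4, 3 higher and 1 lower, where 28.5% of all genes were called (14.3% higher and 14.1% lower). *RPN13* had 388, 541, 551 and 643 FPKM over the 4 points in culture 1 and 468, 574, 587 and 642 FPKM in culture 2 (0.59 ± 0.12 SE, adjusted p = 0.012). *SEM1* had 1098, 1358, 1657 and 1839 FPKM in culture 1 and 1439, 1559, 1755 and 1952 FPKM in culture 2, so each culture was higher at each later point (0.59 ± 0.15 SE, adjusted p = 0.027). *RPN5* had 447 and 456 FPKM at point 4, against 305 and 363 FPKM at point 1 (0.44 ± 0.12 SE, adjusted p = 0.032). *PRE8* fell to 241 and 234 FPKM, against 316 and 284 FPKM (-0.33 ± 0.10 SE, adjusted p = 0.047). The 9 lid genes were all positive, with a median of 0.24 against 0.00 over all genes.

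*RPN4* had 526 and 362 FPKM at point 2, against 305 and 304 FPKM at point 1 of the industrial cultures. The groups did not overlap, but the log2 change of 0.52 ± 0.17 (SE) did not pass the test (adjusted p = 0.069), nor did that from start to end (0.45 ± 0.17 SE, adjusted p = 0.085). *RPN4* was called in both intervals after quantile normalization (0.49 and 0.44) and in the values as deposited (0.55 and 0.52). From point 1 to point 2, 0 members were called with limma (5 higher and 0 lower at an unadjusted p under 0.05), where 17.5% of all genes were called (7.68% higher and 9.84% lower), and from point 2 to point 4, 0 were called (1 higher and 0 lower unadjusted), where 0.780% of all genes were called (0.468% higher and 0.312% lower). Leaving out either library of point 2 raised the members called from start to end to 13, and leaving out culture 1 of point 1 or either culture of point 4 brought it to 0. How many of all genes were called in these fits was not counted.

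Along the laboratory retentostats, from the first to the fourth sampling point, 3 of 34 members were called, 2 higher and 1 lower, where 30.0% of all genes were called (14.1% higher and 15.8% lower). *PUP3*, a beta ring gene, had 783 and 925 FPKM at point 4, against 535 and 530 FPKM at point 1 (log2 change 0.68 ± 0.19 SE, adjusted p = 0.033). *RPN8* had 713 and 646 FPKM, against 446 and 416 FPKM (0.66 ± 0.18 SE, adjusted p = 0.03). *RPN10* fell to 224 and 197 FPKM at point 4, against 380 and 356 FPKM at point 1 (-0.80 ± 0.18 SE, adjusted p = 0.016), with 278 and 360 FPKM at point 2 and 204 in both cultures at point 3. The values of each of these genes did not overlap between point 4 and point 1. All 9 lid genes were positive, with a median of 0.30 against 0.01 over all genes, and the 33 subunits had a median of 0.21.

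Between points 1 and 2, 0 members were called with limma and 0 had an unadjusted p under 0.05, where 0% of all genes were called. At point 2, culture 1 differed from culture 2 in *SEM1* (2010 and 670 FPKM), *RPN4* (691 and 414 FPKM) and *PRE8* (211 and 334 FPKM). From point 2 to point 4, *PRE9*, an alpha ring gene, was called higher, with 608 and 574 FPKM at point 4, against 325 and 405 FPKM at point 2 (0.70 ± 0.19 SE, adjusted p = 0.042), where 17.2% of all genes were called (7.34% higher and 9.85% lower). With the culture as a block, *RPN13* joined it (0.61, adjusted p = 0.049). Leaving out either library of point 2 raised the members called from start to end to 11 or 12. Leaving out either library of point 1 or culture 2 of point 4 brought it to 0. Shares of all genes called were not counted in these fits. *RPN4* had 415, 691, 500 and 482 FPKM over the 4 points in culture 1 and 345, 414, 364 and 384 FPKM in culture 2, and it was called in none of the intervals (start to end 0.18 ± 0.30 SE, adjusted p = 0.66).

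**Figure D3:**
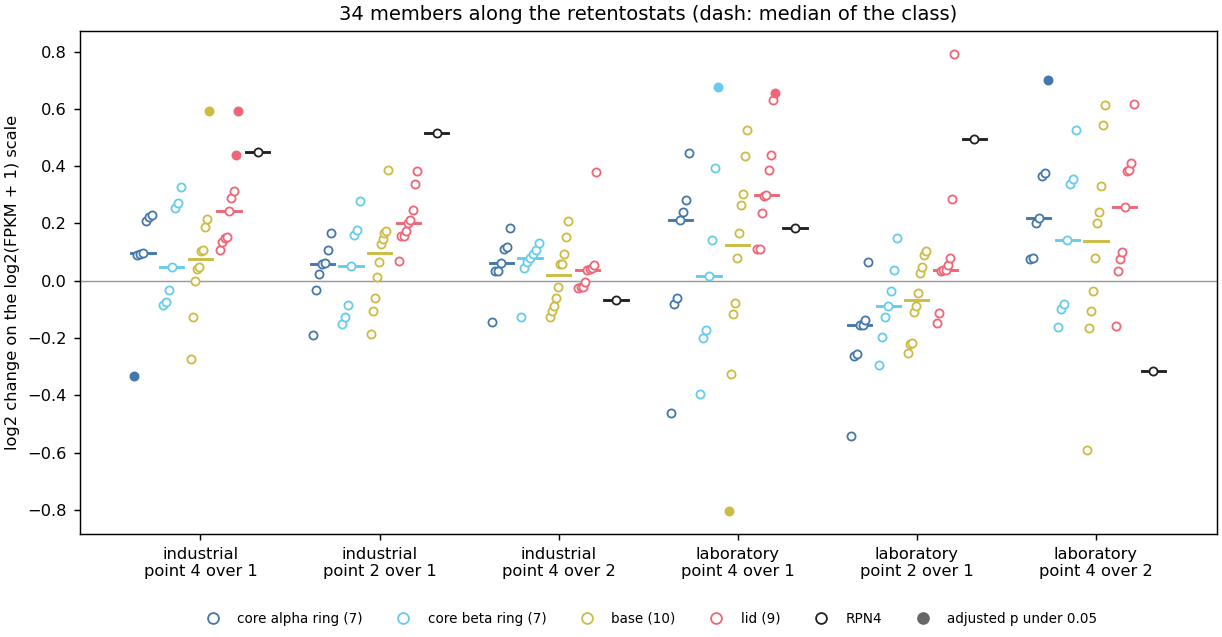
Log2 changes of the 34 members along the retentostats on the log2(FPKM + 1) scale, for industrial and laboratory cultures over 3 pairs of sampling points. Each circle is a gene, filled where the adjusted p was under 0.05, and each dash is the median of a class. From point 1 to point 4 every lid gene is above 0 in both conditions.

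The changes from start to end were compared between conditions, as industrial minus laboratory. The end points are not matched in time or in the growth rate reached, which cannot be told apart from the condition in this difference. With limma, 0 members were called (1 higher and 0 lower at an unadjusted p under 0.05), where 5.38% of all genes were called (3.15% higher and 2.23% lower). The largest difference was that of *RPN10* (0.62 ± 0.22 SE, adjusted p = 0.11), which had -0.13 in the industrial and -0.80 in the laboratory cultures. The median standard error of these differences was 0.202, which limits what could be detected.

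**Figure D4:**
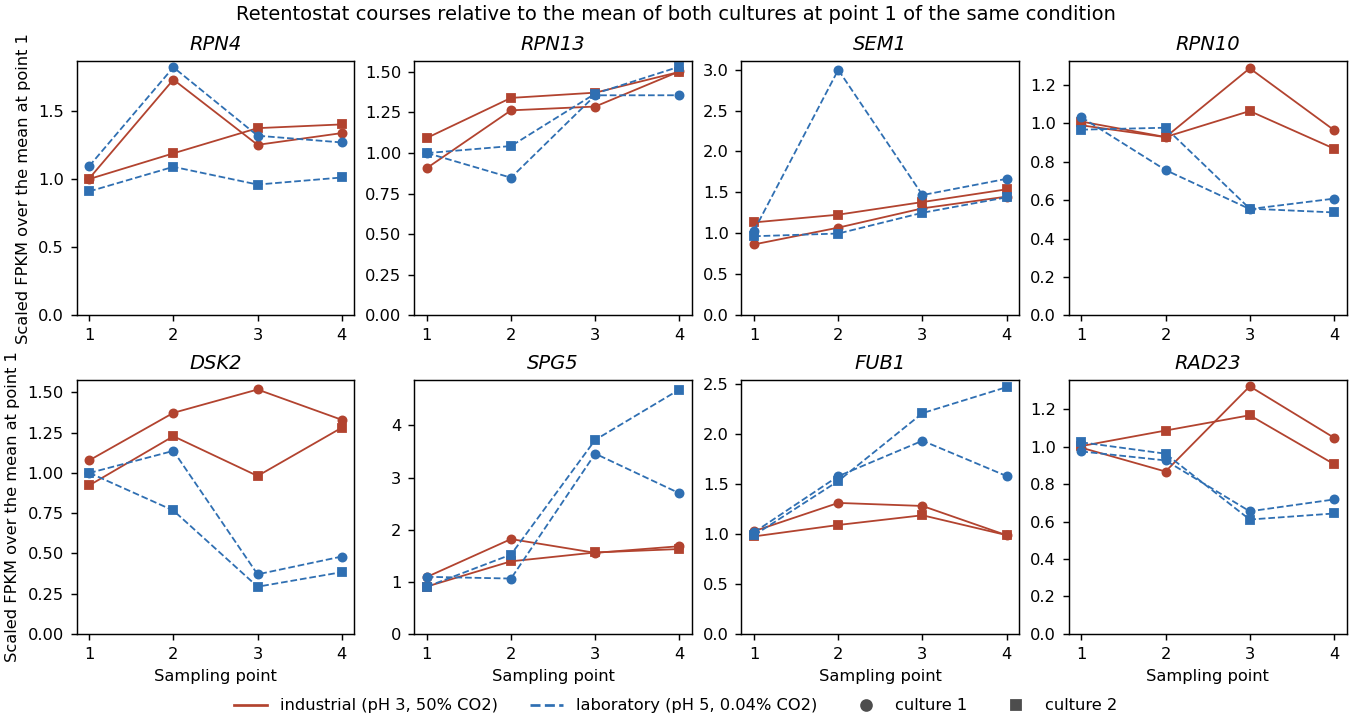
Courses of 4 members and 4 related genes over sampling points 1 to 4, as scaled FPKM divided by the mean of both cultures at point 1 of the same condition. Solid lines are industrial and dashed lines laboratory cultures, with a marker for each culture. Later points of the same number are not matched between conditions. *RPN13* and *SEM1* end above their start in all 4 cultures, *RPN10* ends lower in the laboratory than in the industrial cultures, and *DSK2* ends below its start in the laboratory cultures and above it in the industrial cultures.

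Over all 13 comparisons, 13 members were called at least once and 21, *RPN4* among them, in none, where 78.1% of all genes tested in every comparison were called at least once. The stricter limits of a fold change above 2 and an adjusted p under 0.005 were passed by 0 members in any comparison. Of all genes, these limits were passed by 0.512% with 50% CO2 at pH 5, 3.60% at low pH with 0.04% CO2, 1.54% for the combination, 8.78% with 50% CO2 at pH 3, 0.965% at low pH with 50% CO2 and 2.46% in the interaction. In the retentostats the shares were 2.32%, 0.0195% and 0.0195% in industrial cultures (start to end, points 1 to 2, points 2 to 4), 3.72%, 0% and 0.618% in laboratory cultures over the same point numbers, and 0.356% for the difference. Of the 22 calls at an adjusted p under 0.05, 2 were kept in every alternative that kept this limit and 4 in every fit that left out a library.

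A further 32 genes that work with the proteasome were counted in the same fits: assembly chaperones, proteins bound to the finished particle, ubiquitin delivery factors, ubiquitin genes, and genes listed for Rpn4 turnover or for control of the *RPN4* gene. PACE letters occurred in the windows of 5 of them (*ECM29*, *CDC48*, *UBI4*, *UBA1* and *YAP1*). The largest log2 changes were those of a shuttle factor. Shuttle factors carry ubiquitinated proteins to the receptors of the regulatory particle.

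*DSK2*, the gene of a shuttle factor, had 79.7, 124 and 121 FPKM at pH 3 with 0.04% CO2, against 14.5, 26.7 and 13.3 FPKM at pH 5 (log2 change 2.55 ± 0.26 SE, adjusted p = 0.00011). With 50% CO2 at pH 3 it had 25.3, 21.7 and 27.6 FPKM, a log2 change of -2.06 from 0.04% CO2 (adjusted p = 0.00032). Its level in the pH 3 cultures with 0.04% CO2 was above that in the other 9 steady-state libraries. The laboratory retentostats at point 1, also a steady state at pH 5 with 0.04% CO2, had 118 FPKM of *DSK2* in both cultures and 198 and 208 FPKM of *RAD23*. These values were scaled in a separate fit and are not on the scale of the steady-state libraries. Sequencing and culture of these libraries cannot be told apart. *RAD23*, a second shuttle factor, followed the same pattern, with 138, 144 and 150 FPKM at pH 3 with 0.04% CO2, against 65.0 to 85.3 FPKM in the other 9 steady-state libraries (0.97 over pH 5, adjusted p = 0.00019). *DDI1*, the third, was not called in any steady-state comparison.

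*SPG5*, whose product binds proteasomes and is known from stationary phase, had 1092, 1379 and 1387 FPKM at pH 3 with 0.04% CO2, against 807, 714 and 337 FPKM at pH 5 (1.14 ± 0.33 SE, adjusted p = 0.029). Its call was lost without replicate 3 of the pH 5 group or replicates 2 or 3 of the pH 3 group. *ECM29*, which tethers core to regulatory particle, was at 24.8, 24.2 and 23.7 FPKM, against 15.3, 15.9 and 14.2 FPKM (0.65 ± 0.10 SE, adjusted p = 0.0013). In all, 5 of the 30 related genes tested were called higher at low pH with 0.04% CO2 and 0 lower (12.8% and 8.76% of all genes), and with 50% over 0.04% CO2 at pH 3, 5 were called higher and 5 lower (23.2% and 26.2% of all genes). The higher ones were the chaperone genes *NAS2* (0.56) and *IRC25* (0.49), *STS1* (0.38), *UBP6* (0.44), a deubiquitinase gene, and *RAD6* (0.46), a ubiquitin-conjugating enzyme that acts on Rpn4. In the combination and in low pH at 50% CO2, *RAD6* was the only related gene called (0.44 and 0.47, both with adjusted p = 0.048). These calls were kept in 8 and 9 of 21 alternatives, and were lost with the replicate block and in the values as deposited.

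**Figure D5:**
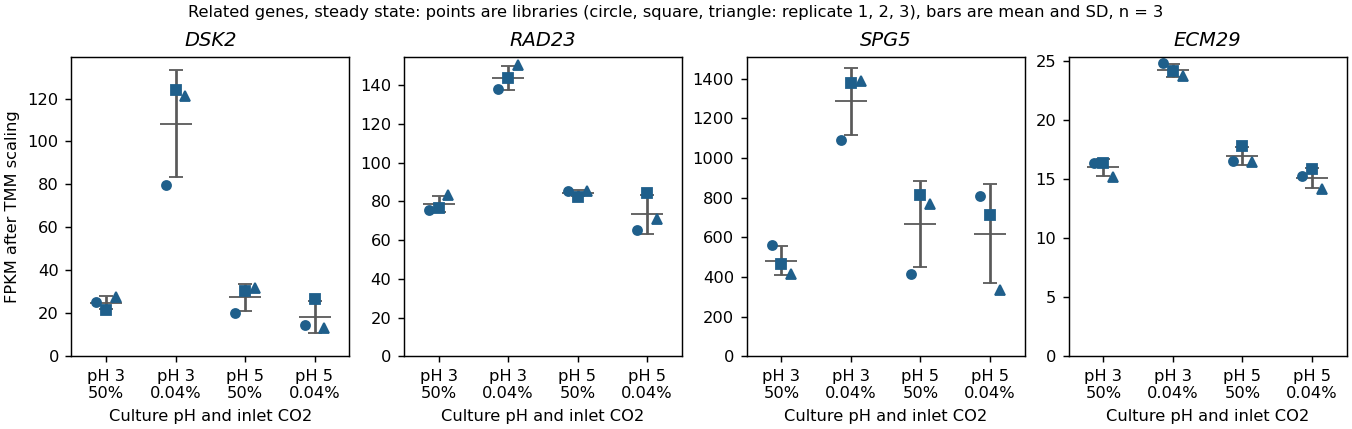
Levels of 4 related genes in the steady-state cultures, in FPKM after TMM scaling. Points are libraries and bars give the mean and SD of 3 cultures. *DSK2*, *RAD23*, *SPG5* and *ECM29* are highest at pH 3 with 0.04% CO2, where *DSK2* has 79.7 to 124 FPKM.

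In the industrial retentostats, 8 of the 30 related genes tested were called higher and 1 lower from point 1 to point 4, where 14.3% of all genes were called higher and 14.1% lower, with *SPG5* at 1004 and 972 FPKM, against 652 and 542 FPKM (0.73 ± 0.15 SE, adjusted p = 0.014). *MUB1* (0.46), whose product takes part in the turnover of Rpn4, and *UBR1* (0.35) also rose. So did *YAP1* (0.48) and *PDR1* (0.48), activator genes of *RPN4*, the chaperone genes *NAS6* (0.53) and *HSM3* (0.38) and *BLM10* (0.36), a core activator gene. *DDI1* fell by 0.35.

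In the laboratory retentostats, 7 of the 32 related genes tested were called higher and 2 lower from point 1 to point 4, where 14.1% of all genes were called higher and 15.8% lower. *SPG5* had 1482 and 2576 FPKM at point 4, against 602 and 497 FPKM at point 1 (1.84 ± 0.32 SE, adjusted p = 0.0069). *DSK2* fell to 56.7 and 45.3 FPKM, against 118 FPKM in both cultures (-1.20 ± 0.21 SE, adjusted p = 0.0073), and *RAD23* had -0.55 (adjusted p = 0.024). The others were *FUB1* (0.97), *NAS2* (0.77), *STS1* (0.59), *YAP1* (0.79), *UBR1* (0.69) and *MUB1* (0.93). Of the genes listed for Rpn4 turnover, *UBR2* and *RAD6* were not called there. Calls on *MUB1*, *UBR1*, *YAP1* and *SPG5* were thus made as higher in both conditions. In that order, the industrial calls were kept in 11, 9, 12 and 11 of 15 alternatives. The laboratory calls were kept in 14, 13, 9 and 14 of 15. Each was lost when certain single libraries were left out.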

How the data were processed

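RNA sequencing values of 26 libraries were analysed. Per the labels and the study's methods, the authors aligned reads to the S288C genome with STAR 2.5.3a, removed ambiguously mapped reads, counted with HTSeq and deposited FPKM, which correct for gene length and library total only. Depth was recovered from the steps between FPKM values (99.69% to 99.91% of genes with up to 1000 reads gave whole numbers to within 0.05).

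FPKM were scaled with TMM factors (trim of 30% on ratios and 5% on levels) and tested as log2(FPKM + 1) with limma 3.58.1 in R 4.3.3, mean-variance trend, two-sided, for genes with a mean of at least 10 FPKM, with Benjamini-Hochberg adjustment over all genes. Fold changes are on this scale. Calls had an adjusted p under 0.05. The 12 steady-state libraries were fitted together, each retentostat condition apart, and both together for the difference. Members and lists were chosen with earlier results of these data known. Named genes were *RPN4* in every comparison, the subunits with the largest positive and negative change of each class, those with the highest and lowest level of each class, any past the stricter limits, and the related gene with the largest change. Other called genes were named after their values were seen. The cultures of a retentostat are sampled repeatedly, so the culture number in the labels pairs samples (correlation of deviations from -0.0107 to 0.717 in laboratory and from -0.0658 to 0.271 in industrial cultures). Of the laboratory libraries, 8 of 8 were closest to their own number, and of the industrial libraries, 6 of 8. The 2 libraries of a point mirror each other in this measure, so they are not separate outcomes. The main retentostat fits held no term for the culture, so their standard errors and p values do not use this pairing. A culture block stood as an alternative. At steady state, replicates are separate cultures and their numbers only names. Alternatives changed scaling, pseudocount, filter, block, libraries, call rule, trend and motif. Scripts were tested on simulated data in which 200 genes were changed by a known fold. Of 1.5-fold changes, 45.5% were recovered for high CO2 at pH 5 and 44.5% for industrial start to end. For laboratory start to end and the retentostat difference 0% were recovered, so changes of this size could go uncalled there. Of 2-fold changes, 79.5%, 78%, 58% and 53% were recovered in the same order. In the data, 30.0% of 5666 genes were called in laboratory start to end, more than the 200 changed in the simulation. The recovered shares need therefore not hold for the data. Tables were made with python 3.11.15, numpy 2.4.6 and pandas 2.3.3, and figures with matplotlib 3.10.9.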

Additional observations from a re-analysis of the deposited data

Results flagged for a closer look

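In 11 cases the difference between 2 effects was itself past an adjusted p of 0.05 with limma, 9 of them as the interaction of pH and CO2 (the change with 50% CO2 at pH 3 minus that at pH 5, log2). Among subunits these were *SEM1* (1.11) and *PUP1* (-0.86). Among related genes, *DSK2* (-2.66), *SPG5* (-1.56), *RAD23* (-1.07) and *ECM29* (-0.73) had a more negative change at pH 3, and *IRC25* (0.56), *NAS2* (0.52) and *STS1* (0.41) a more positive one. Between retentostats, as industrial minus laboratory change from start to end, *DSK2* (1.53) and *FUB1* (-1.05) differed.

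*DSK2* and *RAD23* were called in the interaction in 20 and 19 of the 20 alternatives that kept the limit of adjusted p, *ECM29* in 19 and *PUP1* in 18. *SEM1* kept its call in 10, *SPG5* in 10, *NAS2* in 9, *IRC25* in 8 and *STS1* in 7.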

How the results depend on the processing

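With the study's own limits (fold above 2, adjusted p under 0.005) every count of members called that was above 0 became 0. This held for low pH at 0.04% CO2 (0), high CO2 at pH 3 (0), the interaction (0), both laboratory intervals with calls (0 and 0) and industrial start to end (0). In the values as deposited, 4 members were called for low pH at 0.04% CO2 (all lower), 28 for high CO2 at pH 3 and 26 for the interaction (all higher), 10 and 5 for laboratory start to end and points 2 to 4, and 1 for industrial points 1 to 2. *RPN10* turned to 0.105 for high CO2 at pH 3 (adjusted p = 0.57). Quantile normalization gave 2 for the combination, 24 for high CO2 at pH 3, 6 and 3 for those laboratory intervals, and 8 and 2 for industrial start to end and points 1 to 2. The subunit median for low pH at 0.04% CO2 was 0.06, but -0.37 as deposited and -0.15 after quantile normalization. For laboratory points 2 to 4, median scaling gave 2 and no filter 3. A linear trend over sampling points gave 7 for laboratory start to end and 1 for the difference. With only the labelled chemostat library at pH 3 with 50% CO2, 1 was called for the combination, 1 for low pH at 50% CO2 and 6 for the interaction. The cause of these shifts was not tested. Outside the study's own limits, the share of all genes called was counted only in the fit without the 2 pH 5 libraries that stood apart. There it was counted for the combination and for low pH at 50% CO2. The other counts in this section cannot be set against all genes.

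Leaving out the 2 pH 5 libraries that stood apart, chosen after seeing the data, gave 10 for the combination, 12 for low pH at 50% CO2 and 8 for the interaction. With the replicate block, 1 was called for the interaction and 2 for laboratory points 2 to 4. Steady-state numbers did not pair the cultures (correlations of deviations from -0.802 to 0.502, 3 of 12 libraries closest to their own number).

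Leaving out a library at a time gave counts of 0 to 3 for low pH at 0.04% CO2, 0 to 4 for the combination, 4 to 14 for high CO2 at pH 3, 0 to 6 for low pH at 50% CO2 and 0 to 8 for the interaction. The ranges were 0 to 13, 0 to 7 and 0 to 2 for industrial start to end, points 1 to 2 and points 2 to 4, 0 to 12, 0 to 5 and 0 to 11 for the same laboratory point numbers, and 0 to 1 for the difference.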
